A study of Rattus rattus with 18 samples.

Results

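The miR-191 and miR-425 microRNAs were read in rat brain by 5 of the 761 miRNA probes on the array, which target rno-miR-191a-5p, rno-miR-191a-3p, rno-miR-191b, rno-miR-425-5p and rno-miR-425-3p. The miR-191a and miR-191b probes were chosen by their measured intensities, because miR-191a-5p and miR-191b differed in opposite directions between sham, tMCAO and PostC arrays, so every value of these 3 probes is given as a description with no test. The miR-425 probes belong to the set by the place of their gene beside that of miR-191a, and their differences were tested. Of the 5 members, 4 passed the filter on dim probes and were among the 532 probes tested, and miR-191a-3p did not pass it.

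The series held 18 single-colour (Cy5) arrays of 9 male Sprague Dawley rats, 3 sham-operated, 3 with transient middle cerebral artery occlusion (tMCAO, in which a filament closes the artery and is then withdrawn) and 3 labelled remote limb postconditioning (PostC, brief periods of limb ischemia given after a stroke). Each rat gave 1 array of a region called core and 1 of a region called peri, so that each of the 6 groups had 3 arrays from 3 rats. The sources used here do not say whether the PostC rats also underwent tMCAO or how old the rats were, and the study's text gives an earlier and a later time of sacrifice after reperfusion without saying which the arrays used. The labels put the core samples in the temporo-parietal cortex and the peri samples in the striatum, whereas the study's text places them the other way round, so the regions are named here only as core and peri, in sham-operated rats too.

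The genes of miR-191 and miR-425 lie close together within an intron of DALRD3 in mammals and can be transcribed as 1 unit, from which each hairpin gives a 5p and a 3p arm. A mature miRNA guides the silencing complex to messenger RNAs mainly through its seed, the bases near its 5′ end. MiR-191-5p and miR-425-5p are abundant in brain and in blood cells, and both are in common use as reference miRNAs in PCR assays.

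The sequences of the members are shown because the results turn on 2 probes whose targets resemble each other. They are the targets listed in the deposited spot files, 5′ to 3′, and the capitals mark the seed (bases 2 to 8).
miR-191a-5p: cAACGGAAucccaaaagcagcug
miR-191b: gAACGAAAuccaagugcagcu
miR-191a-3p: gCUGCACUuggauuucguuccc
miR-425-5p: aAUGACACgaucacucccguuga
miR-425-3p: aUCGGGAAuaucguguccgcc

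The seeds of the 5 members all differed from each other. The seeds of miR-191a-5p and miR-191b differed by a single substitution, G6A, with positions counted from the 5′ end of miR-191a-5p. Over their whole length these sequences were 6 edits apart, and each was the nearest target of the other on the array. No other target lay within 3 edits of any member. MiR-17-2-3p had the seed of miR-191a-3p, and the other 4 seeds were found in no other target.

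MiR-191b was also complementary to miR-191a-3p, the other arm of the miR-191a hairpin, over a run of 20 bases, marked in capitals in the next 2 sequences.
miR-191a-3p: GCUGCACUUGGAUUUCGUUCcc
miR-191b: GAACGAAAUCCAAGUGCAGCu
Among the 761 targets, 60 pairs had a complementary run of at least 16 bases, so such a pair was not peculiar to these 2 miRNAs. Whether the miR-191b probe reads a separate miRNA could not be told from these data, and the values given for miR-191b are those of its probe. The genomic positions of the members were not analysed here.

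Across the arrays, between 188 and 605 probes were detected, a probe counting as detected where the median of its 4 spots exceeded a limit set per array from the empty control spots. MiR-124-3p, a miRNA of neurons, was detected on all 18 arrays at deposited intensities of 14428 to 23467. The tMCAO peri arrays detected 189 to 230 probes, against 318 to 471 on the sham peri arrays. In bulk tissue, fewer cells of a type and less RNA per cell cannot be told apart.

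MiR-191a-5p, the main mature product of the miR-191a hairpin, was detected on all 18 arrays. In core its deposited normalized intensities were 6174, 5375 and 8017 in sham rats 1, 2 and 3. They were 13116, 12376 and 11206 in the tMCAO rats and 10764, 9594 and 11142 in the PostC rats. Every tMCAO and every PostC core array was thus brighter than every sham core array, and every tMCAO core array was brighter than every PostC core array on this scale. In peri the intensities were 9688, 7484 and 8808 in sham, 9031, 8941 and 6964 in tMCAO and 6979, 7978 and 7461 in PostC, with the tMCAO and PostC values inside or below the sham range.

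On the log2 scale after normalization of the spot intensities, miR-191a-5p in core stood at 12.62 ± 0.19 (SD, n = 3) in sham, 13.55 ± 0.16 in tMCAO and 13.35 ± 0.25 in PostC, and on this scale the tMCAO and PostC ranges overlapped. The difference of tMCAO from sham was 0.93 (SE 0.21), or 1.90-fold, and that of PostC from sham was 0.74 (SE 0.21). In peri the means were 12.71 ± 0.43 in sham, 12.99 ± 0.28 in tMCAO and 12.82 ± 0.08 in PostC, with overlapping ranges. The tMCAO difference was larger in core than in peri by 0.64 (SE 0.39). Within rats, core exceeded peri by 0.55 (SE 0.28) in tMCAO and 0.53 (SE 0.28) in PostC, against -0.09 (SE 0.28) in sham.

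A single stray spot lowered the peri mean of sham rats. On the array of sham peri rat 3, 1 of the 4 spots of miR-191a-5p read 1235 units against 10196, 11641 and 11856 for the others, and the SD of the 4 spots was 1.59 on the log2 scale, against at most 0.20 on the other 17 arrays. Without that spot the sham peri mean was 12.97, close to the 12.99 of tMCAO peri, so that the small peri difference of 0.28 rested on it and became 0.02. Without it core minus peri in sham was -0.36 (SE 0.21) in place of -0.09, the tMCAO difference was larger in core than in peri by 0.91 (SE 0.30) in place of 0.64, and the rat means differed between tMCAO and sham by 0.47 in place of 0.61. The deposited intensity of that array, 8808, lay between those of the other sham peri arrays. Before normalization the tMCAO peri arrays were also dimmer, with median spots of 4485 to 7273 units against 9634 to 10918 in sham peri, and scaling each array to the same median, which moved the median of all probes in this comparison to -0.42, gave a peri difference of -0.53 for miR-191a-5p.

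**Figure D1:**
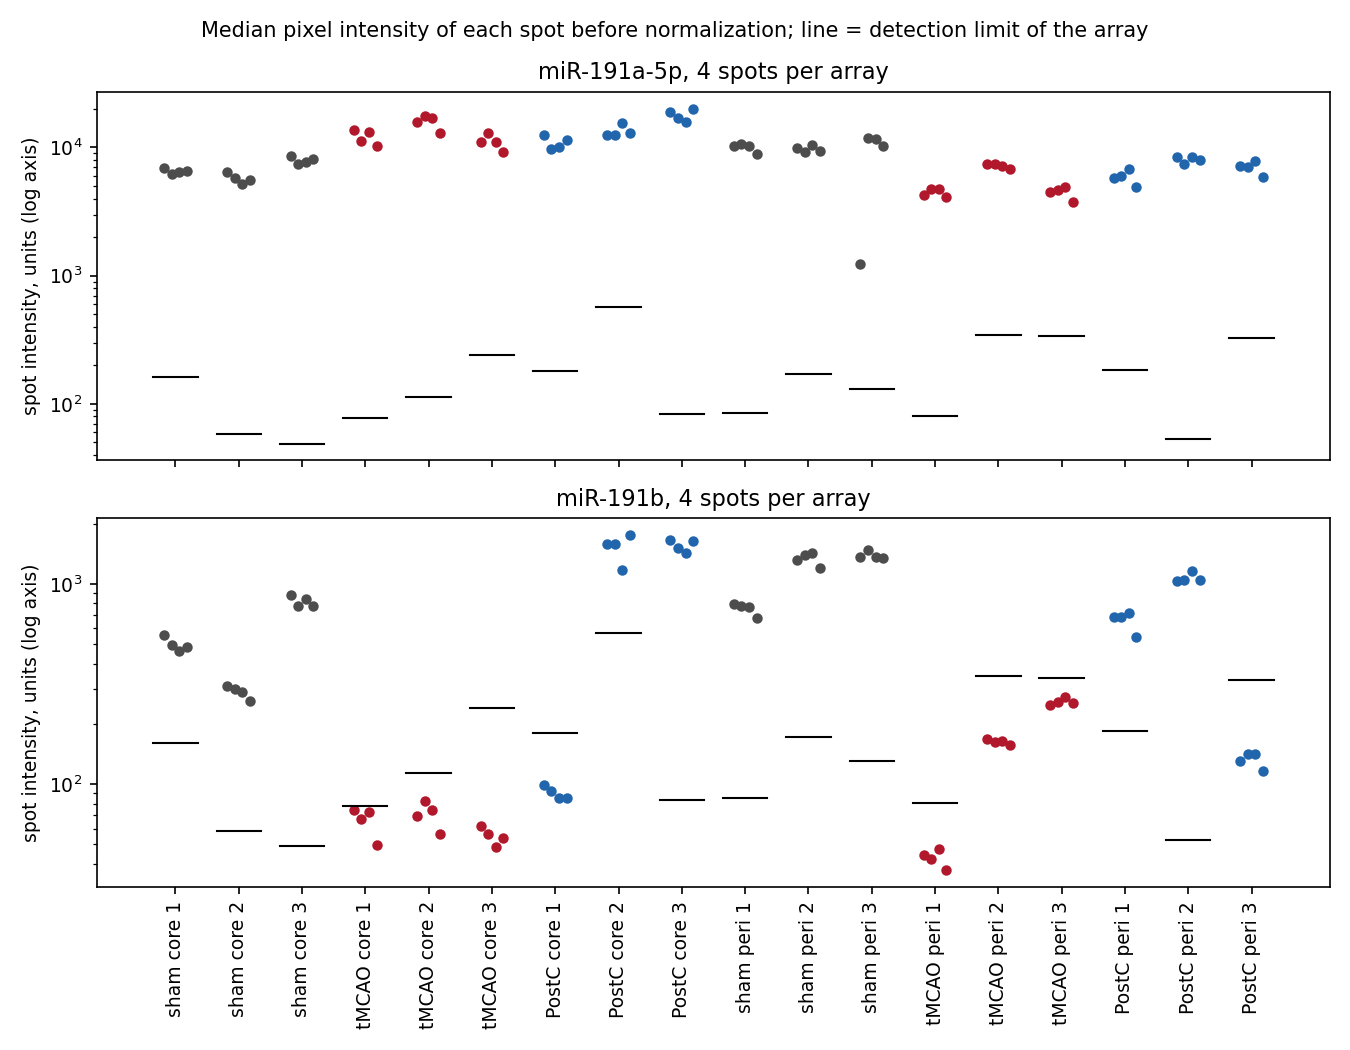
Median pixel intensity of each of the 4 spots of miR-191a-5p (upper panel) and miR-191b (lower panel) on the 18 arrays, before background correction and normalization, on a log axis in scanner units. Columns are arrays named by group, region and rat, and the black line is the detection limit of the array. MiR-191a-5p lay above the limit on every array, with 1 stray spot at 1235 units on sham peri rat 3, while miR-191b lay above it on the 6 sham arrays and on none of the 6 tMCAO arrays.

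MiR-191b differed the other way. It was detected on all 6 sham arrays, on 0 of 6 tMCAO arrays and on 4 of 6 PostC arrays. Its deposited intensities in core were 371, 220 and 633 in sham rats 1, 2 and 3. In the tMCAO core arrays they were 6.36, 14.0 and 9.92. Each tMCAO core value was thus far below each sham value, with no overlap.

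In peri, miR-191b measured 534, 773 and 1018 in sham and 12.2, 59.1 and 221 in tMCAO, again without overlap. The highest tMCAO array, peri of rat 3, had a median spot of 256 units, above the median miRNA spot of that array, 129 units, but below its detection limit of 338 units. On tMCAO core rat 1, the array of that group with the most detected probes (447) and a limit of 77.4 units, the median spot of miR-191b was 69.7 units.

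Because no tMCAO array exceeded its limit, the size of the difference is given as a bound, which takes for each dim array the higher of the probe's own level and the lowest level among detected probes. With the mean of the sham arrays taken as measured, miR-191b was at least 3.02-fold higher in sham than in tMCAO in core, and at least 2.92-fold higher in peri. The bound does not cover the spread between sham rats. The measured means on the normalized log2 scale were 8.92 ± 0.65 (SD, n = 3) in sham core and 6.75 ± 0.31 in tMCAO core, 9.84 ± 0.48 in sham peri and 7.87 ± 0.52 in tMCAO peri.

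In PostC rats, miR-191b was present on some arrays and not on others. Its deposited intensities in core were 100, 664 and 560 in rats 1, 2 and 3, and in peri 572, 795 and 83.1. The arrays without detection were core of rat 1 and peri of rat 3, and in both rats the other region lay within the sham range of that region. The normalized log2 means were 9.13 ± 0.78 in PostC core and 9.02 ± 1.15 in PostC peri. In each region 2 of the 3 PostC arrays were detected, and these exceeded all tMCAO arrays of the region. The undetected PostC array has no order against the undetected tMCAO arrays, so no fold between the groups is read. The PostC minus tMCAO differences of miR-191b given below are measured values, and their size is not exact.

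The 2 PostC arrays on which miR-191b was not detected also detected the fewest probes of that group, 198 and 188, against 240 to 605 on the other 4. The part of array brightness in this pattern was not tested. In measured values, leaving out PostC rat 3 moved the PostC minus sham difference in peri from -0.82 to -0.18, and the PostC minus tMCAO difference in peri from 1.15 to 1.80, while leaving out PostC rat 2 moved them to -1.28 and 0.69. Leaving out PostC rat 1 moved the PostC minus sham difference in core from 0.22 to 0.66. Without sham rat 2 the latter was -0.09, so no direction is given for PostC against sham in core.

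Set in order of the normalized means, miR-191b ran from sham peri through PostC core, PostC peri and sham core to tMCAO peri and tMCAO core. In that order the ranges of neighbouring groups overlapped down to tMCAO peri, and both tMCAO groups, below the limit on all arrays, have no order between them. The places of PostC core and PostC peri are not read either, since each mean holds an undetected array. The order of miR-191a-5p ran from tMCAO core through PostC core, tMCAO peri, PostC peri and sham peri to sham core, and the ranges of all neighbours overlapped. That order rested on the stray spot, without which sham peri (12.97) came above PostC peri (12.82), and in the deposited intensities the sham peri mean, 8660, exceeded those of tMCAO peri, 8312, and PostC peri, 7473.

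**Figure D2:**
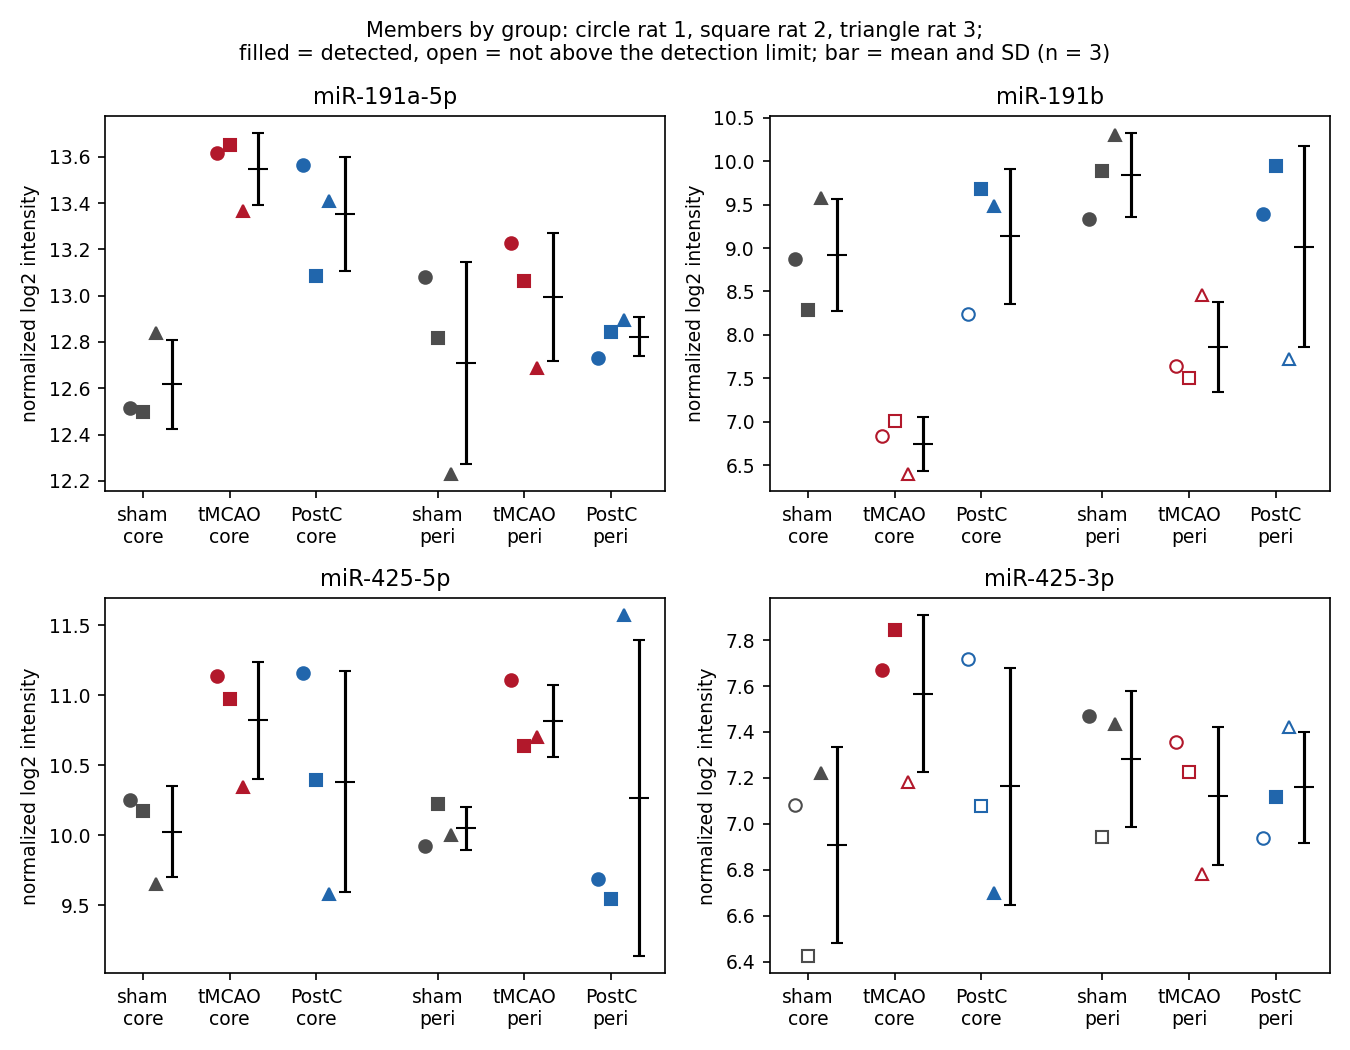
Normalized log2 intensity of miR-191a-5p, miR-191b, miR-425-5p and miR-425-3p in the 6 groups, 1 point per array (circle rat 1, square rat 2, triangle rat 3; filled where the probe was detected, open where it was not), with the mean and SD of 3 rats. MiR-191a-5p was highest in tMCAO core at 13.55 and miR-191b measured 6.75 there without detection, and the PostC points of miR-191b and miR-425-5p spread widely.

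The difference between both miR-191 probes on the same array, miR-191a-5p minus miR-191b in normalized log2 units, shows how far they moved apart. Since probes differ in brightness, its size within an array has no meaning and only its change between groups is read. All values are as measured, also on the 6 tMCAO and 2 PostC arrays where miR-191b was below its limit, so their size is not exact. It was 3.70 ± 0.48 (SD, n = 3) in sham core, 6.80 ± 0.16 in tMCAO core and 4.22 ± 0.99 in PostC core. In peri it was 2.87 ± 0.91 in sham, 5.13 ± 0.78 in tMCAO and 3.81 ± 1.20 in PostC, and without the stray spot the sham peri value was 3.13 ± 0.54. The values of tMCAO rats 1, 2 and 3 were 6.78, 6.65 and 6.97 in core and 5.59, 5.56 and 4.23 in peri. The measured tMCAO group mean was above those of sham and PostC in both regions, although peri of PostC rat 3 exceeded peri of tMCAO rat 3. In PostC core the values of rats 1, 2 and 3 were 5.32, 3.41 and 3.93, and in PostC peri 3.34, 2.90 and 5.17. The 2 widest PostC values were again those of core rat 1 and peri rat 3.

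MiR-191a-3p, the minor arm of the miR-191a hairpin, was detected on 1 of 18 arrays, PostC core rat 3, where its median spot of 98.0 units was just above the limit. Its deposited intensities ran from 0 to 34.1 over the 18 arrays. No comparison of groups was possible at this signal, although miR-191a-5p, from the same hairpin, was detected throughout. On the 6 sham arrays, on all of which miR-191b was detected, the arm complementary to it was not.

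MiR-425-5p, the main product of the neighbouring hairpin, was detected on all 18 arrays. In core its deposited intensities were 1155, 1025 and 757.8 in sham rats 1, 2 and 3, and 2103, 1817 and 1208 in tMCAO rats. In peri they were 979.6, 1124 and 1005 in sham and 2144, 1557 and 1674 in tMCAO. The tMCAO arrays were above the sham arrays of the same region without overlap in both regions.

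The normalized log2 means of miR-425-5p were 10.03 ± 0.32 (SD, n = 3) in sham core, 10.82 ± 0.42 in tMCAO core, 10.05 ± 0.15 in sham peri and 10.82 ± 0.26 in tMCAO peri. The tMCAO minus sham difference was 0.79 (SE 0.46, 95% interval -0.22 to 1.81, limma adjusted p = 0.315) in core and 0.77 (SE 0.48, 95% interval -0.27 to 1.81, limma adjusted p = 0.480) in peri. In the mean of both regions of each rat it was 0.78 (SE 0.26, 95% interval 0.20 to 1.36, limma adjusted p = 0.0708), or 1.72-fold. None of these passed the threshold of 0.05 on the adjusted p, and by the methods' t-test the adjusted p in the rat means was 0.111. Over the settings tried, the adjusted p in the rat means ran from 0.0142, with quantile normalization, to 0.758, with median scaling. Core and peri differences were of nearly equal size, 0.03 apart (95% interval -1.70 to 1.75, limma adjusted p = 0.992), an interval wide enough to hold a large difference between regions in either direction. The peri difference depended on the scaling: before normalization the median spots of tMCAO peri, 708 to 1334 units, lay mostly below those of sham peri, 1292 to 1878 units, and median scaling gave -0.38.

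In PostC rats miR-425-5p measured 1691, 1371 and 757.8 in core of rats 1, 2 and 3, and 704.3, 679.2 and 2594 in peri. Core of rat 1 and peri of rat 3 had the highest PostC values of their regions, the same 2 arrays on which miR-191b was not detected. In both rats the other region lay below its PostC mean, so these deviations partly cancelled in the rat means. The SD within groups in the limma fit was 0.55 in core, 0.68 in peri and 0.27 in the rat means. In the rat means PostC differed from sham by 0.29 (SE 0.26, 95% interval -0.29 to 0.86, limma adjusted p = 0.656) and from tMCAO by -0.49 (SE 0.26, 95% interval -1.07 to 0.08, limma adjusted p = 0.358). When a rat was left out, the first ran from 0.16 (without PostC rat 3) to 0.46 (without PostC rat 2). The second ran from -0.64 (without tMCAO rat 3) to -0.32 (without PostC rat 2). Median scaling gave -0.051 and -0.18. In peri the PostC minus tMCAO difference of -0.55 (limma adjusted p = 0.886) was decided by rat 3: without it the difference was -1.20 (limma adjusted p = 0.0272), in a fit that called 59 probes where the fit on all rats called 0 (31 at an unadjusted p under 0.05, and 0 by the methods' t-test after adjustment).

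MiR-425-3p, the other arm of that hairpin, was near the detection limit and was detected on 7 of 18 arrays, 2 of tMCAO core, 1 of sham core, 2 of sham peri, 1 of PostC core and 1 of PostC peri. Its deposited intensities in core were 47.8, 16.7 and 57.8 in sham and 101, 127 and 45.2 in tMCAO, which overlapped. In peri they were 81.2, 41.9 and 75.9 in sham and 85.9, 60.3 and 17.7 in tMCAO. The tMCAO minus sham difference was 0.66 (SE 0.34, limma adjusted p = 0.278) in core, -0.16 (SE 0.23, limma adjusted p = 0.754) in peri and 0.25 (SE 0.22, limma adjusted p = 0.441) in the rat means. The difference between regions, 0.82 (SE 0.37, limma adjusted p = 0.573), did not pass the threshold.

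**Figure D3:**
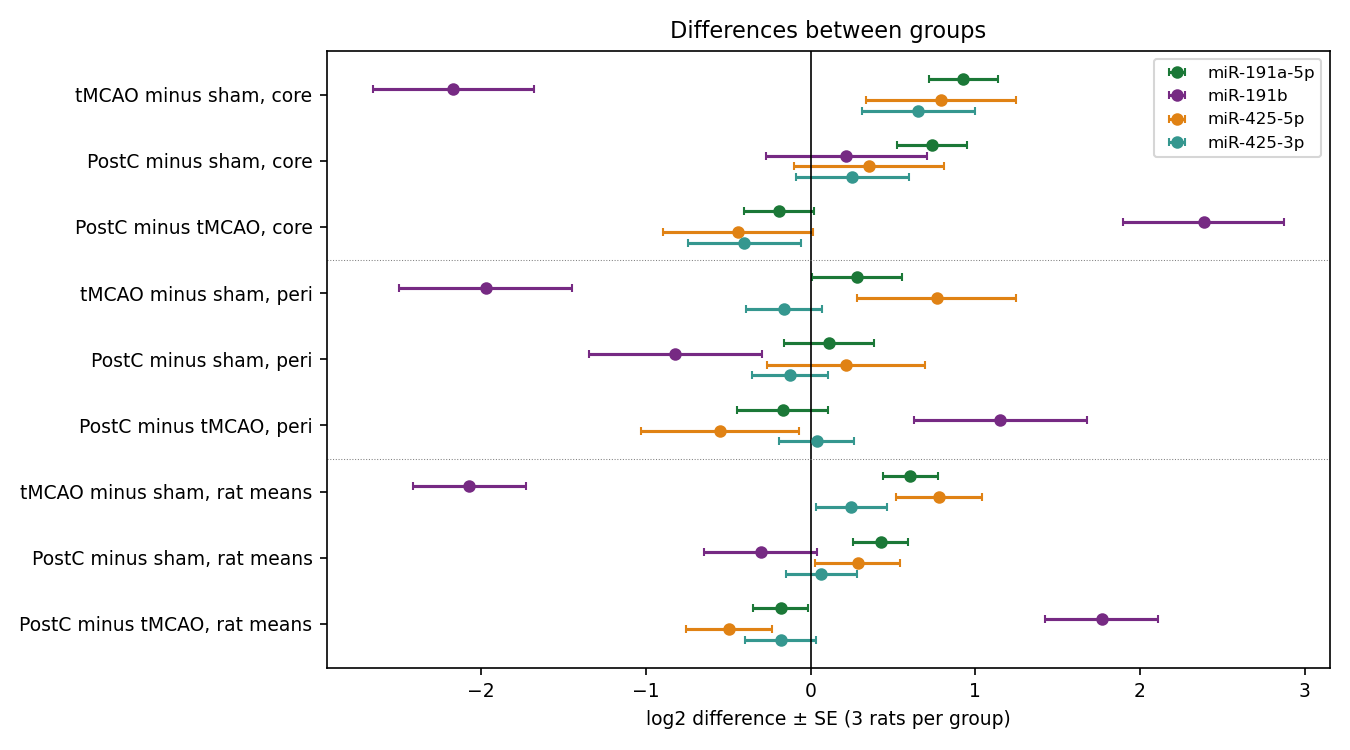
Differences between groups on the log2 scale (x axis) for 4 members in core, in peri and in the mean of both regions of each rat, as points with the standard error of the limma fit over 3 rats per group. For tMCAO minus sham in the rat means, miR-191b lay at -2.07, miR-191a-5p at 0.61 and miR-425-5p at 0.78, and for PostC minus tMCAO miR-191b lay at 1.77. The miR-191b points rest on arrays without detection and are measured values, not bounds.

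These differences were set beside those of all probes. In core, miR-191a-5p and miR-425-5p were above and miR-191b below sham in all tMCAO rats without overlap, where 16.7% of the 532 probes stood apart as higher and 24.2% as lower. In peri, miR-425-5p stood apart as higher and miR-191b as lower, where 15.6% and 16% of probes did. In the rat means, miR-191a-5p and miR-425-5p stood apart as higher and miR-191b as lower, where 17.7% and 23.3% did. Groups that stood apart were therefore common on these arrays, and for the miR-191 probes nothing is read from the counts.

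For PostC against sham, miR-191a-5p stood apart as higher in core and in the rat means, where 10.9% and 10.7% of probes did. For PostC against tMCAO, miR-191b stood apart as higher in core and in the rat means in measured values, where 12% and 18.6% did. With 2 of the 6 PostC arrays and all tMCAO arrays below the limit, nothing is read from this separation. The PostC and tMCAO comparisons with sham share the sham arrays, and both PostC comparisons share the PostC arrays.

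Of the 2 miR-425 probes, limma called 0 at an adjusted p under 0.05 in any of the 9 comparisons, with 1 (miR-425-5p, tMCAO minus sham, rat means) at an unadjusted p under 0.05, and the methods' t-test called 0 after adjustment. The share of all probes called by limma for tMCAO minus sham was 3.38% in core, 0.564% in peri and 11.8% in the rat means. For PostC minus tMCAO it was 2.26% in core, 0% in peri and 5.64% in the rat means, and for PostC minus sham 0% in core, 0% in peri and 0.188% in the rat means, where limma gave 90, 14 and 75 probes an unadjusted p under 0.05 and the methods' t-test called 0 after adjustment.

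The members were also compared with each other across the 18 arrays, which come from 9 rats and share groups, regions and normalization, so the correlations are descriptions. Between miR-191a-5p and miR-191b the Pearson r was -0.59 (Spearman -0.55), -0.43 without the 2 arrays farthest from the median and -0.48 without the stray spot. After the group means were taken out it was -0.35, and it was -0.04 over the 6 sham and -0.22 over the 6 PostC arrays. The value over the 6 tMCAO arrays, -0.83, relates miR-191a-5p to signal below the limit of miR-191b, and nothing is read from it. Between miR-425-5p and miR-191b it was r = -0.71 (Spearman -0.70), -0.78 without the 2 farthest arrays and -0.71 after the group means were taken out. That relation rested mostly on the 6 PostC arrays, where r was -0.91 with miR-191b below its limit on 2 of them, while it was -0.33 over the 6 sham arrays and 0.14 over the 6 tMCAO arrays, all below the limit. Among the other 531 probes tested, miR-425-5p had the 16th lowest r with miR-191b.

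MiR-191a-5p and miR-425-5p, from neighbouring hairpins, had r = 0.42 (Spearman 0.42), which placed miR-425-5p at rank 112 of 531 by likeness to miR-191a-5p. After the group means were taken out r was 0.18, and it was -0.36 over the sham, 0.39 over the tMCAO and 0.23 over the PostC arrays. Both arms of the miR-425 hairpin had r = 0.53 (Spearman 0.50), with -0.51 over the 6 sham, 0.60 over the 6 tMCAO and 0.83 over the 6 PostC arrays, with miR-425-3p detected on 7 of the 18. Over the 156 hairpins with both arms tested the median r between arms was 0.18, and miR-425 was at place 39 from the top.

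**Figure D4:**
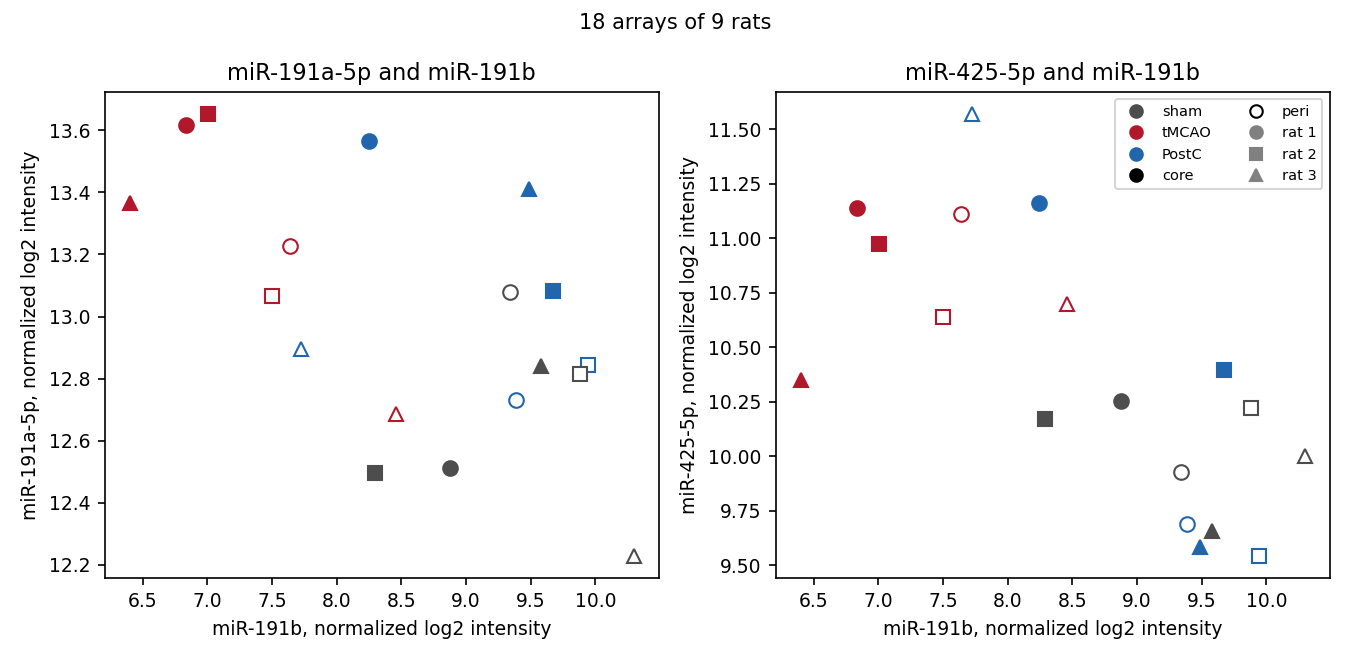
Normalized log2 intensity of miR-191a-5p (left) and miR-425-5p (right) on the y axis against miR-191b on the x axis, 1 point per array (colour for group, filled for core, open for peri, shape for rat; 18 arrays of 9 rats). The tMCAO points lie at the low end of miR-191b, and in the right panel PostC core rat 1 and PostC peri rat 3 lie among the highest miR-425-5p values, apart from the other 4 PostC points.

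Among 139 other probes detected on all 18 arrays, those most like miR-191a-5p across the arrays were miR-150-5p (r = 0.81), a miRNA of mature lymphocytes, miR-674-3p (r = 0.79) and miR-329-3p (r = 0.78). MiR-150-5p was higher in tMCAO than in sham by 1.55 (SE 0.31, limma adjusted p = 0.0318) in core and by 0.29 (SE 0.32, limma adjusted p = 0.692) in peri. Those most like miR-191b were miR-210-5p (r = 0.79), an arm of the hypoxia-responsive miR-210 hairpin, miR-27b-3p (r = 0.72) and miR-212-3p (r = 0.71), a miRNA induced by neuronal activity. MiR-210-5p was lower in tMCAO than in sham by -1.66 (SE 0.34, limma adjusted p = 0.0318) in core, with -1.26 (SE 0.50, limma adjusted p = 0.237) in peri, and in the rat means PostC differed from sham by 0.38 (SE 0.31, limma adjusted p = 0.619). In core the other miRNAs named here did not pass the threshold. MiR-674-3p differed by 1.84 (limma adjusted p = 0.142) and miR-329-3p by 1.30 (limma adjusted p = 0.0922). MiR-27b-3p differed by -0.91 (limma adjusted p = 0.152) and miR-212-3p by -0.96 (limma adjusted p = 0.142). The calls of miR-150-5p and miR-210-5p in core depended on single rats. Leaving out each rat in turn gave limma adjusted p of 0.0280 to 0.132 for miR-150-5p and 0.0211 to 0.124 for miR-210-5p. Both calls were lost without any 1 of the 3 sham rats, without tMCAO rat 1 and without tMCAO rat 2, and that of miR-210-5p also without tMCAO rat 3. These arrays also chose the miRNAs named, so the likeness is no independent support. The likeness to miR-191b uses all 18 arrays, and that probe was detected on only 10 of them.

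MiR-191a-5p and miR-425-5p are used as PCR references, and so were compared with 10 other miRNAs in such use. Of these, 9 were tested, and limma called 0 in all 9 comparisons, with 0 to 3 per comparison at an unadjusted p under 0.05 and 0 by the methods' t-test after adjustment. In core their tMCAO minus sham differences ran from -1.29 for miR-186-5p to 1.20 for miR-320-3p, with a median of 0.34, against a median of -0.05 over all probes. The 0.93 of miR-191a-5p and the 0.79 of miR-425-5p lay within that range. In peri the 9 ran from -0.33 for miR-16-5p to 0.55 for miR-361-5p, and the 0.77 of miR-425-5p lay above them. In the rat means the median was 0.17, or -0.17 with median scaling, and 7 of the 9 were above 0. Among the smallest differences in core was that of miR-26a-5p, 0.17 (SE 0.14).

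Markers of other cell types were read on the same arrays. For leukocytes, 6 miRNAs had a summed deposited intensity of 2729 to 3799 in sham core, 7125 to 10367 in tMCAO core and 5052 to 7894 in PostC core, against 2806 to 3312, 3137 to 4333 and 2644 to 4176 in the same groups in peri. Of the members detected on all arrays, miR-150-5p was called as higher in tMCAO core, with the p and the losses given above, where 3.38% of all probes were called. MiR-155-5p also passed the threshold there (1.56 as measured, SE 0.31, limma adjusted p = 0.0318, and 0.00336 to 0.132 when a rat was left out), but it exceeded the limit on 2 tMCAO arrays, 1 PostC array and 0 sham arrays and so entered the test through the groups where it was brighter, and nothing is read from that call. Of the other 3 tested, miR-146a-5p, detected on all arrays, differed by 0.96 (SE 0.35), miR-223-3p by 1.35 (SE 0.75) and miR-142-5p by -0.46 (SE 0.33), with limma adjusted p of 0.152, 0.308 and 0.401. MiR-223-3p was detected on 1 sham and 2 tMCAO arrays, miR-142-5p on 3 and 0, and miR-142-3p, not tested, on 1 and 0. MiR-142-5p thus entered the test through sham and PostC arrays, and nothing is read from its fit.

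For neurons, the sum of 7 miRNAs was 81801 to 98074 in sham core, 59903 to 77257 in tMCAO core and 74106 to 87994 in PostC core. Of the 7, 4 fell in the rat means of tMCAO against sham (miR-9a-5p, miR-137-3p, miR-153-3p and miR-218a-5p, with limma adjusted p of at most 0.0452), where 11.8% of all probes were called, 39 of them lower. When each of the 9 rats was left out in turn, the call of miR-218a-5p held in all 9 fits, that of miR-137-3p in 7 (not without sham rat 2 or tMCAO rat 2) and those of miR-9a-5p and miR-153-3p in 3 each. In core, to which the sums belong, limma called 0 of the 7, with 5 at an unadjusted p under 0.05, the same 4 as lower and miR-128-3p as higher, and 0 by the methods' t-test after adjustment. MiR-128-3p differed by 0.34 (SE 0.14, limma adjusted p = 0.206) in core and by 0.44 (SE 0.14, limma adjusted p = 0.0668) in the rat means. MiR-124-3p differed by -0.21 in core and -0.011 in the rat means, and miR-138-5p by 0.41 and 0.057. Their limma adjusted p ran from 0.469 to 0.962. In the rat means the methods' t-test called 1 of the 7 after adjustment. For red blood cells, which carry miR-451-5p in quantity, the sum of 4 miRNAs was 2258 to 3916 in sham core, 2488 to 3889 in tMCAO core and 1316 to 1476 in PostC core, and miR-144-3p and miR-144-5p were detected on 0 of 18 arrays. MiR-451-5p, detected on all arrays, differed between tMCAO and sham by -0.014 (SE 0.35, limma adjusted p = 0.986) in core and 0.14 (SE 0.37, limma adjusted p = 0.808) in the rat means. Of the same list, miR-486 was detected on 9 arrays, 3 each of sham, tMCAO and PostC. In measured values it was higher in tMCAO by 1.39 (SE 0.27, limma adjusted p = 0.0095) in the rat means, where 11.8% of all probes were called. In core it differed by 1.91 (SE 0.52, limma adjusted p = 0.0922). The call was lost without tMCAO rat 2 (limma adjusted p = 0.0598), and the methods' t-test called 0 of this list in the rat means after adjustment.

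The endothelial sum of 2 miRNAs was 8880 to 14038 in sham core and 3821 to 7543 in tMCAO core, against 6580 to 8637 and 5222 to 7191 in peri. The oligodendrocyte sum, also of 2 miRNAs, was 1690, 10629 and 1905 in core of sham rats 1, 2 and 3 and 77.2 to 516 in tMCAO core, against 247 to 1534 and 88.6 to 407 in peri. For tMCAO minus sham limma called 0 of these 4 miRNAs in core, in peri or in the rat means, and the methods' t-test 0 after adjustment. The lowest limma adjusted p in core was 0.142 for miR-126a-3p and 0.0903 for miR-338-3p, both at an unadjusted p under 0.05. MiR-219a-5p and miR-126a-5p were detected on 0 of the 6 tMCAO arrays and entered the test through sham and PostC arrays, so nothing is read from their fits.

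Peri of PostC rat 3, where miR-191b was not detected and miR-425-5p was brightest, also stood apart in these sums. In PostC peri of rats 1, 2 and 3 the red blood cell sum was 1656, 734 and 5807, the endothelial sum 7908, 7112 and 13885 and the neuron sum 101060, 100234 and 68200. Core of PostC rat 1, also without detection of miR-191b, did not share this pattern. In PostC core of rats 1, 2 and 3 the red blood cell sum was 1389, 1476 and 1316. The endothelial sum there was 4041, 7838 and 7202, and the neuron sum 74106, 77086 and 87994. The part of these cell types in the differences of miR-191a-5p, miR-191b and miR-425-5p was not tested.

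For miR-191b, the median SD of its 4 spots was 0.10 on the log2 scale and the median SD between rats of a group 0.58. For miR-425-5p these were 0.16 and 0.37, and for miR-191a-5p 0.15 and 0.22. The 4 spots share the labelling, hybridization and scan of their array, so their spread covers only the reading of spots.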

How the data were processed

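The members and the lists of miRNAs were chosen with earlier results of these data known. The authors deposited spot files with the raw median intensity of each spot, not corrected for background, and a matrix of linear intensities that had been background-subtracted and normalized with a locally weighted regression filter. The labels give Rattus rattus, while the probes are those of Rattus norvegicus. The labels name the miRNeasy kit for the RNA and the study's text names Trizol.

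Background in the spot files was corrected by normexp, fitted on every spot with an offset of 50, and values were put on the log2 scale and normalized by cyclic loess over the miRNA spots of the 18 arrays, and the 4 spots of a probe were averaged. Detection needed a median spot brighter than the 612 empty spots by 3 scaled median absolute deviations above their median, and tests were run on the 532 probes with 3 or more such arrays. The empty spots were in places brighter than dim miRNA spots, which makes the limit strict there. Since loess takes rises and falls to balance, differences are relative to the other miRNAs. The number of arrays and the signal over background limit the precision.

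Differences were fitted in R 4.3.3 by limma 3.58.1, with lmFit, then eBayes using a variance trend, all 3 groups sharing the spread, two-sided, with Benjamini-Hochberg adjustment over the 532 probes at 0.05, in core, in peri, in the mean of both regions of each rat and in the difference within rats. The rat was the replicate. The same code was tested on simulated arrays. With 3 rats against 3, an exact permutation test could not reach 0.05. Because each group had only 3 rats, limma was used in place of the methods' t-test, which was an alternative.

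The miRNAs named are the 5 members, the 3 probes detected on all arrays most like miR-191a-5p and the 3 most like miR-191b, targets sharing a member's seed or within 3 edits, 10 PCR reference miRNAs and 21 markers of cell types. The alternatives were plain subtraction, no background correction, quantile normalization, median scaling, the deposited table (floor of 50 units), the median of the spots, other filters, no variance trend, a replicate block, only the groups compared, the rat as a random block and leaving out each rat. Leaving out stray spots (over 2 log2 units from the median of the probe) and loess over all spots were added after seeing the data. Rats with the same number in different groups are different animals, and their deviations from the group means correlated between -0.40 and 0.23, so the number was not taken as a pairing. No genome was used here.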

Additional observations from a re-analysis of the deposited data

How the results depend on the processing

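For tMCAO minus sham, miR-191a-5p was higher in core (0.87 to 1.10) and miR-191b lower in both regions under every setting run, leaving out each rat included, except that miR-191b and miR-425-3p were not fitted where detection on all arrays was required. The miR-191b value, -2.17 in core and -1.97 in peri, was -2.90 and -3.11 with the deposited table and -2.84 in peri with median scaling, and between -2.48 and -1.84 in core and between -2.27 and -1.74 in peri when a rat was left out. The measured widening of miR-191a-5p minus miR-191b in core, 3.10, was 3.57 with median scaling and 3.82 with the deposited table. The miR-425-5p difference in the rat means passed the threshold with quantile normalization (1.05, limma adjusted p = 0.0142) and with no variance trend (0.78, limma adjusted p = 0.0484), and was 0.13 with median scaling. With the replicate block it was 0.78 (limma adjusted p = 0.124), and the block changed no call of a miR-425 probe. In 1 fit over both regions with the rat as a random block the limma adjusted p was 0.114. Leaving out a rat gave 0.63 to 0.93. With median scaling, miR-425-5p reversed in tMCAO minus sham in peri (-0.38), in PostC minus sham in peri (-0.37) and in the rat means (-0.051), and in PostC minus tMCAO in peri (0.010). When a rat was left out, its PostC minus sham difference ran from -0.036 (without PostC rat 1) to 0.75 in core and from -0.43 (without PostC rat 3) to 0.58 in peri. MiR-425-3p, near its limit, reversed in PostC minus tMCAO in peri with plain subtraction (-0.087) and with the deposited table (-0.16), and in PostC minus sham in the rat means with plain subtraction (-0.064) and with loess over all spots (-0.061). When a rat was left out, its difference ran from -0.13 (without tMCAO rat 3) to 0.15 for PostC minus tMCAO in peri, from -0.14 (without sham rat 2) to 0.18 for PostC minus sham in the rat means, from -0.023 (without PostC rat 1) to 0.49 for PostC minus sham in core and from -0.33 to 0.0093 (without tMCAO rat 3) for tMCAO minus sham in peri. For tMCAO minus sham, miR-425-3p ran from 0.41 (without sham rat 2) to 0.85 (without tMCAO rat 3) in core. In the rat means it ran from 0.041 (without sham rat 2) to 0.43 (without tMCAO rat 3), and was 0.031 with loess over all spots. The number of probes called for tMCAO minus sham ran from 3 with the replicate block to 40 with only the compared groups in core (18 as reported), from 0 to 128 with median scaling in peri (3 as reported), and from 10 with plain subtraction to 130 with median scaling in the rat means (63 as reported). Of the 63, 24 were higher, and of the 130, 26. Leaving out a rat gave 0 (without sham rat 1) to 27 (without PostC rat 3) calls in core, 0 to 36 (without PostC rat 3) in peri and 8 (without tMCAO rat 2) to 96 (without tMCAO rat 3) in the rat means. For PostC minus tMCAO in the rat means it ran from 3 to 38, with 30 as reported, and from 9 (without tMCAO rat 2) to 46 (without sham rat 2) when a rat was left out. In core that comparison ran from 0 with the methods' t-test to 19 with the deposited table, with 12 as reported. Leaving out a rat gave 3 (without tMCAO rat 1) to 21 (without sham rat 2). For PostC minus sham in core, 0 as reported, the number reached 6 with quantile normalization and 8 without PostC rat 2. A slide or scan block was not run, because the array files name neither. The causes were not tested.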
